A study of Mus musculus with 6 samples.

Results

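The 35 genes described here are transcribed in response to interferons, and they were taken by gene symbol from RNA-seq of the mouse incisor. All 35 were found among 25703 genes of the count table, and 34 passed the filter on low counts. They comprise 30 type I interferon response genes and 5 GTPases best known as targets of gamma-interferon. RNA came from the proximal region of the incisor, the end that holds the stem cells from which the tooth grows throughout life. Mice of the genotype Gli1-CreER;Arid1a fl/fl, called Arid1a cKO, were compared with Arid1a fl/fl control mice without the Cre, with 3 libraries each. All mice are labelled as C57BL/6 in strain background and as 6 weeks old. Both genotypes carried floxed Arid1a alleles, and the protocol gives the same tamoxifen course for all samples, 1.5 mg per 10 g body weight by intraperitoneal injection on 3 days at 1 month of age. Gli1-CreER is a recombinase that tamoxifen activates and that is made where Gli1 is, in the mesenchymal stem cells of the incisor among others, so recombination is limited to cells that made Gli1 at that time and their descendants. Since the control lacked the Cre, Arid1a loss and the presence of CreER cannot be told apart. Whether each library is a different animal is not stated in the labels, and p-values therefore speak only of the spread among these 6 libraries, which may be technical.

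Interferons are secreted proteins by which cells warn each other of viruses and other microbes. Type I interferons bind the receptor chains Ifnar1 and Ifnar2 and activate Stat2, which joins Irf9 in a complex that binds a DNA element called ISRE in front of antiviral genes. Gamma-interferon comes mainly from T cells and NK cells and acts through the receptor chains Ifngr1 and Ifngr2 on an element called GAS. Its typical targets in the mouse include the guanylate-binding proteins (GBP) and the immunity-related GTPases (IRG), which attack the vacuoles of intracellular microbes, although many of these genes respond to type I interferon as well. A low level of this program is present in tissues without infection.

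Estimated counts summed to between 29922013 and 37908478 per library in Arid1a cKO and between 27300932 and 32677240 in control. Levels are given in CPM, counts scaled to the library total, with library totals adjusted by TMM. Arid1a, the floxed gene, had 136, 139 and 145 CPM in Arid1a cKO replicates 1 to 3, against 222, 249 and 223 CPM in control replicates 1 to 3. The groups did not overlap, and the log2 fold change was -0.72 (SE 0.07, adjusted p = 0.00802 by the quasi-likelihood test of edgeR with Benjamini-Hochberg adjustment). All 12 dental mesenchyme markers examined passed the filter on low counts. They summed to 25040, 22083 and 23142 CPM in Arid1a cKO and 33102, 12976 and 27109 CPM in control. Divided by its mean over 6 libraries, the median marker stood at 0.991, 0.964 and 0.986 in Arid1a cKO. In control it stood at 1.09, 1.04 and 1.03. By edgeR 1 of the 12, Msx2, was called lower (adjusted p = 0.0194), against 2.46% of all genes tested. The groups were separated in 4 markers lower and 1 higher in Arid1a cKO, against 15.3% and 13.8% of all genes tested. In bulk tissue, fewer cells of a type and less RNA per cell cannot be told apart.

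Of the 34 interferon response genes tested, 1 was lower in Arid1a cKO at an adjusted p under 0.05 by edgeR's quasi-likelihood test, and 0 were higher. Over all 19613 genes tested, 3.96% were called, 2.46% lower and 1.5% higher, so the share among these genes was close to the background. The gene called lower was Gbp7. At an unadjusted p under 0.05 there were 3 genes, Gbp7, Gbp3 and Rsad2, all lower in Arid1a cKO, and 22% of all genes tested lay under that limit. DESeq2 called 2 of the 34 members, Gbp7 and Rsad2, and 1935 of all 19613 genes tested. Read by sign alone, 28 of the 29 type I response genes tested and 4 of the 5 GTPases had a negative log2 fold change, with medians of -0.29 and -0.48, against 0.00 for all genes tested. Among type I response genes that sign depended on which libraries were kept. Without control replicate 1, 17 of 29 were positive, and without Arid1a cKO replicate 1, 0 of 29 were. A fit without both of these libraries was not run.

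**Figure D1:**
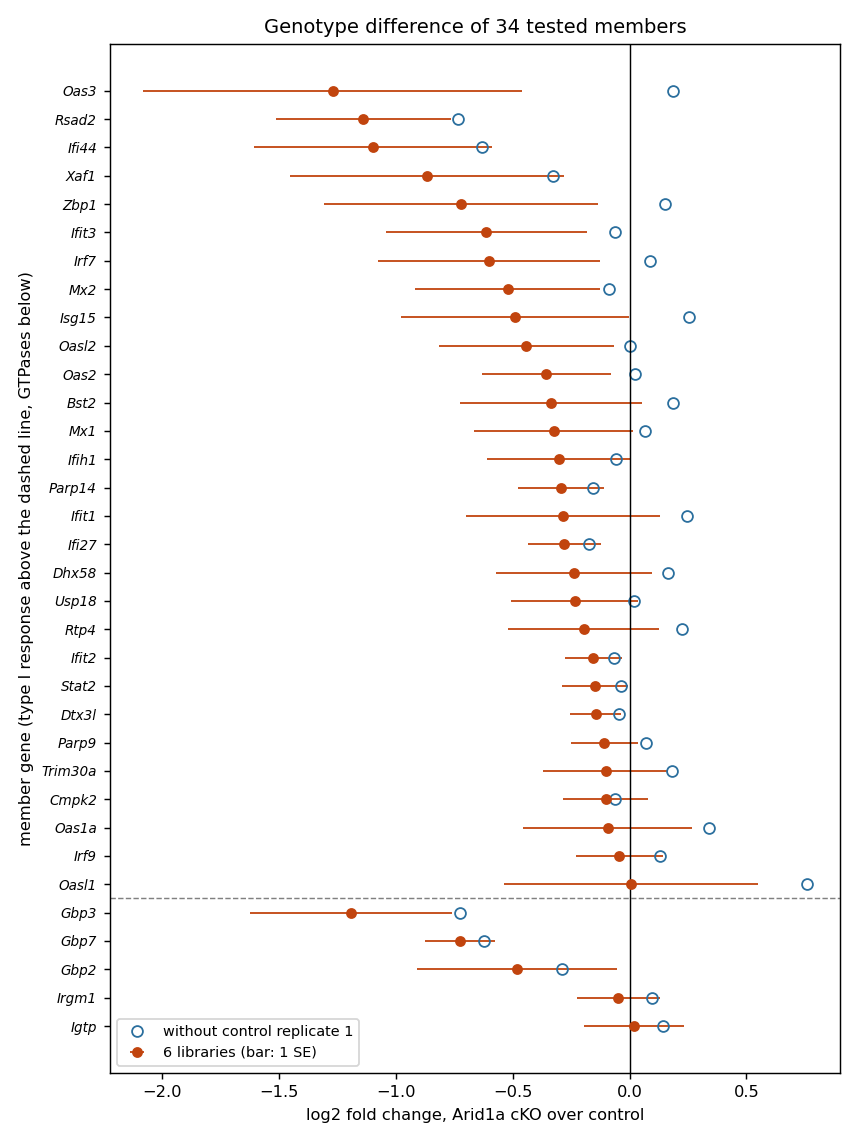
Log2 fold change of Arid1a cKO over control for each of the 34 members tested, with all 6 libraries (filled points, bars of 1 SE) and without control replicate 1 (open points). With 6 libraries 28 of 29 type I response genes lie left of 0, and without control replicate 1 17 of them lie right of it, while Gbp3, Gbp7 and Gbp2 lie left of 0 in both.

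The promoters of 7 members are printed here, picked by hand and only from windows that hold a match to an ISRE. Another window of Gbp3 held no match to either element and is not printed. Whether these elements bear on the variation between libraries was not tested. Each is the 130 bases before the RefSeq start site, 5′ to 3′ on the gene's own strand in GRCm38.p6, with matches to an ISRE (2 copies of GAAA with 2 free bases between, or TTTC likewise on the other strand) or a GAS (TTCNNNGAA, which reads the same on both strands) in capitals. Gbp7 lies at chr3:142530206-142530335 (+), Gbp3 at chr3:142559914-142560043 (+), Igtp at chr11:58199426-58199555 (+) and Irgm1 at chr11:48871421-48871550 (-). Isg15 lies at chr4:156200819-156200948 (-), Ifit1 at chr19:34640759-34640888 (+) and Rsad2 at chr12:26456453-26456582 (-).
Gbp7: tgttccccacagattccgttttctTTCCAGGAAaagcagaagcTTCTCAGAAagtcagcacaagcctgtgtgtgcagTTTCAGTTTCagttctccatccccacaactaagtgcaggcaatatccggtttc
Gbp3: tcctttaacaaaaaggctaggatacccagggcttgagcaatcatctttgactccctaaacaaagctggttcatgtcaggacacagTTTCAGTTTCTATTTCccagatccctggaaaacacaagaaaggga
Igtp: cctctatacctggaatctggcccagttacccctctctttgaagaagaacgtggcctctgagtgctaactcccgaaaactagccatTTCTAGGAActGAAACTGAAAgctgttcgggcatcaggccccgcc
Irgm1: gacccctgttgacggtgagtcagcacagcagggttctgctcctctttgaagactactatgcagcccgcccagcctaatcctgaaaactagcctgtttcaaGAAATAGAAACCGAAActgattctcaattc
Isg15: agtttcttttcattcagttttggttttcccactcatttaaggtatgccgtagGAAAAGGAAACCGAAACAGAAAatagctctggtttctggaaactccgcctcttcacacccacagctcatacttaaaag
Ifit1: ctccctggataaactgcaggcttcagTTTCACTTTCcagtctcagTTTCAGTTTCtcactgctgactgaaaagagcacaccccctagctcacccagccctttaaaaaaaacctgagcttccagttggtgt
Rsad2: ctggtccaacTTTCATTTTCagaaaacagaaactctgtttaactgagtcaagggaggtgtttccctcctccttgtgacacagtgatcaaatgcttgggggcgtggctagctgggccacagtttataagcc

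Gbp7 held 1 ISRE match, 53 bases before the start, and 2 GAS matches, 106 and 87 bases before it. Isg15 held 3 ISRE matches that overlap each other in a run of GAAA repeats, and the pairs in Gbp3 and Irgm1 overlap likewise. In Igtp the GAS match, 45 bases before the start, precedes the ISRE match, 34 bases before it, without overlap. Windows from 250 bases before to 50 after the start were present for 25 members. An ISRE match was in 11 of 20 type I response genes (55.0%) and in 5 of 5 GTPases, against 3.99% of 27025 genes with a window. A GAS match was in 3 of 20 type I response genes (15.0%) and in 2 of 5 GTPases (40.0%), against 9.55% of all genes with a window. A match is a description of the letters and does not show that a factor binds there.

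By gene family, the 5 GTPases comprise 3 GBP and 2 IRG genes. The 3 GBP genes lie in one cluster on chromosome 3 (mm10, between 142530342 and 142638008, plus strand), and the 2 IRG genes lie on chromosome 11. Gbp7 had 27.4, 19.8 and 20.7 CPM in Arid1a cKO replicates 1 to 3, against 42.6, 37.4 and 32.5 CPM in control replicates 1 to 3. Every Arid1a cKO library was below every control library, and 15.3% of all genes tested were separated in that direction. Gbp7 averaged 22.6 ± 4.14 CPM in Arid1a cKO and 37.5 ± 5.07 CPM in control (SD, n = 3 each), a log2 fold change of -0.73 (SE 0.15, adjusted p = 0.0457 by edgeR's quasi-likelihood test with Benjamini-Hochberg adjustment). The call was close to its threshold: with 1 library left out it was made only without Arid1a cKO replicate 1 (adjusted p = 0.0167), and the adjusted p was 0.0694 to 0.131 without any other library, by the same edgeR test. Of the 75-base stretches of Gbp7, 11.3% also occur in Gbp3 or in the pseudogene Gm43802, so part of its reads could be assigned to either.

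Gbp3 had the largest negative log2 fold change among the GTPases. It had 12.2, 6.82 and 5.34 CPM in Arid1a cKO, against 28.9, 14.1 and 12.9 CPM in control. The groups did not overlap, but control replicate 1 stood at 2.14 times the mean of the other two control libraries, and the log2 fold change of -1.19 (SE 0.43) had an adjusted p of 0.184 by edgeR's quasi-likelihood test. Gbp2 had 17.0, 6.50 and 6.17 CPM in Arid1a cKO, against 17.3, 11.7 and 12.6 CPM in control. Here Arid1a cKO replicate 1 lay with the control libraries and the other two lay below all of them. The log2 fold change of Gbp2 was -0.48 (adjusted p = 0.559 by edgeR), and without Arid1a cKO replicate 1 it was -1.13 (adjusted p = 0.0283 by edgeR).

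Igtp and Irgm1, both IRG proteins that act at the membranes of microbe-containing vacuoles in mouse cells, had nearly equal group means. Igtp had 15.8, 10.3 and 9.30 CPM in Arid1a cKO, against 13.5, 10.1 and 11.2 CPM in control. Irgm1 had 27.8, 19.2 and 19.8 CPM in Arid1a cKO, against 27.5, 21.2 and 20.4 CPM in control. In both genes replicate 1 of each genotype was the highest of its group. The other libraries overlapped in Igtp, while in Irgm1 Arid1a cKO replicates 2 and 3 lay slightly below all control libraries. Their log2 fold changes were 0.02 (SE 0.21, adjusted p = 0.975) and -0.05 (SE 0.18, adjusted p = 0.905) by edgeR's quasi-likelihood test. The 3 GBP genes kept a negative log2 fold change under all 15 other settings tried, whereas Igtp and Irgm1 changed sign in 3 settings each. The difference between the families was not tested. Igtp overlaps Irgm2 on the same strand and shares 7.8% of its 75-base stretches with it.

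**Figure D2:**
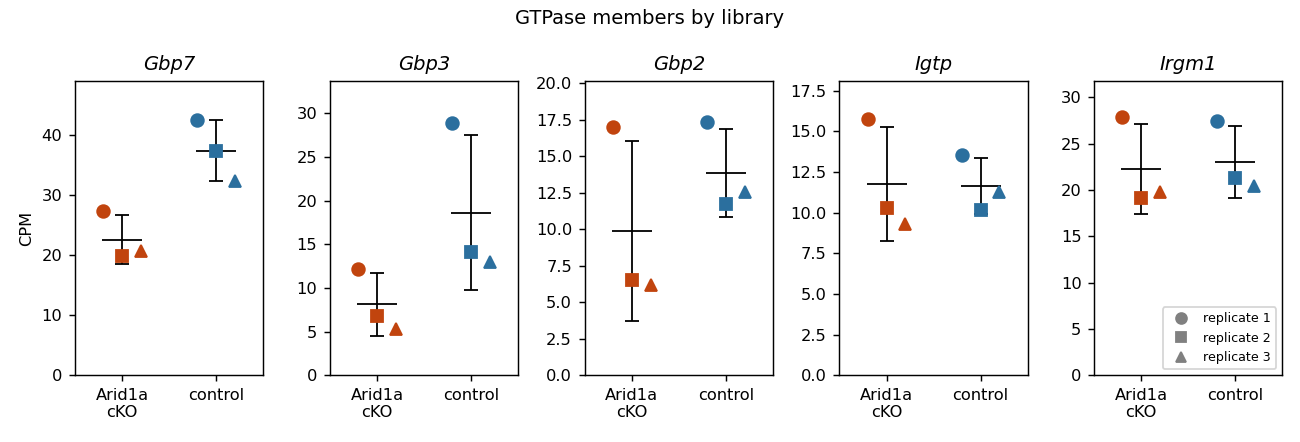
CPM of the 5 GTPase members in each library, Arid1a cKO left of control, with the mean and SD (n = 3) as bars and a symbol for each replicate number, which names a library only. Gbp7 and Gbp3 do not overlap between genotypes, Gbp2 and Irgm1 overlap through Arid1a cKO replicate 1 alone, and Igtp also through the other libraries.

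Among the factors that carry the type I signal, none was called. Irf9, the DNA-binding partner of Stat2, had 48.4, 36.2 and 32.9 CPM in Arid1a cKO, against 49.6, 36.1 and 35.5 CPM in control (log2 fold change -0.04, SE 0.19, adjusted p = 0.920 by edgeR). Stat2 had 35.6, 26.0 and 27.2 CPM in Arid1a cKO, against 37.6, 30.0 and 30.7 CPM in control. In both genes replicate 1 of each genotype was the highest of its group. Irf7, which amplifies type I interferon production, had 11.1, 7.88 and 6.13 CPM in Arid1a cKO, against 22.4, 8.23 and 7.60 CPM in control. Control replicate 1 stood at 2.83 times the mean of the other two control libraries, and the log2 fold change of -0.60 had an adjusted p of 0.509 by edgeR.

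The cytosolic sensors among the members are Ifih1, which detects long double-stranded RNA, its relative Dhx58, and Zbp1, which binds Z-form nucleic acids. Ifih1 had 14.7, 7.85 and 9.70 CPM in Arid1a cKO, against 17.4, 9.03 and 13.3 CPM in control. Zbp1 had 1.40, 0.650 and 0.660 CPM in Arid1a cKO, against 2.84, 0.725 and 0.913 CPM in control. The groups overlapped in all 3 sensors, and their adjusted p-values by edgeR were 0.515 to 0.729.

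Rsad2, which encodes viperin, an enzyme that makes a chain-terminating nucleotide against viral polymerases, was the only type I response gene among those tested whose groups did not overlap. Of all genes tested, 29.1% did not overlap between genotypes, and 15.3% had Arid1a cKO below control. Rsad2 had 2.42, 1.16 and 1.45 CPM in Arid1a cKO, against 5.51, 2.68 and 2.92 CPM in control. Its log2 fold change was -1.14 (SE 0.38), with an adjusted p of 0.133 by edgeR's quasi-likelihood test and 0.0430 by DESeq2. Cmpk2, the nucleotide kinase encoded next to Rsad2 on chromosome 12, had 6.80, 4.76 and 4.95 CPM in Arid1a cKO, against 6.25, 5.07 and 6.43 CPM in control. The groups of Cmpk2 overlapped, and its log2 fold change was -0.10 (adjusted p = 0.789 by edgeR).

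The OAS enzymes make the short oligoadenylates that switch on RNase L. Oas3 had the most negative log2 fold change of all members, -1.27 (SE 0.81, adjusted p = 0.410 by edgeR), at a low level. It had 1.02, 0.704 and 0.363 CPM in Arid1a cKO, against 3.82, 0.616 and 0.621 CPM in control. A single library, control replicate 1, made that difference, at 6.18 times the mean of the other two control libraries, and without it the log2 fold change was 0.19. Oasl1, which in the mouse restrains translation of Irf7, had the highest log2 fold change among type I response genes tested, 0.01 (SE 0.54). It had 1.02, 0.595 and 0.693 CPM in Arid1a cKO, against 1.37, 0.652 and 0.256 CPM in control. Oasl2 had 45.0, 27.2 and 26.4 CPM in Arid1a cKO, against 68.2, 32.3 and 33.3 CPM in control, and Oas2 and Oas1a overlapped between genotypes too. Oas1a shares 47.6% of its 75-base stretches, mainly with Oas1g, so its level is uncertain.

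Isg15, a ubiquitin-like protein that is joined to other proteins, had 7.01, 4.90 and 4.22 CPM in Arid1a cKO, against 13.6, 4.24 and 4.78 CPM in control. Ifit1, which binds viral RNA that lacks the host's cap methylation, had 10.6, 6.17 and 6.43 CPM in Arid1a cKO, against 15.2, 5.47 and 7.60 CPM in control. Bst2, or tetherin, which holds budding virus particles at the cell surface, had 15.4, 10.3 and 9.17 CPM in Arid1a cKO, against 23.6, 10.0 and 10.4 CPM in control. In each of the 3 genes control replicate 1 was highest, Arid1a cKO replicate 1 was second, and the remaining libraries of both genotypes overlapped. Their log2 fold changes of -0.49, -0.29 and -0.34 had adjusted p-values of 0.609, 0.741 and 0.670 by edgeR, and without control replicate 1 they were 0.26, 0.25 and 0.19. Usp18, which removes Isg15 from proteins and dampens the type I receptor, was at -0.24 on the log2 scale (adjusted p = 0.666 by edgeR). Ifit3 had 8.64, 4.41 and 5.87 CPM in Arid1a cKO, against 15.7, 5.80 and 7.38 CPM in control, and it shares 41.1% of its 75-base stretches, mainly with Ifit3b.

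Ifi44 had 6.19, 1.81 and 4.39 CPM in Arid1a cKO, against 13.7, 6.71 and 6.10 CPM in control. Arid1a cKO replicate 1 lay just inside the control range, and the log2 fold change was -1.10 (SE 0.51, adjusted p = 0.275 by edgeR). Xaf1, known as a partner of the apoptosis inhibitor XIAP, had 8.18, 14.7 and 5.61 CPM in Arid1a cKO, against 28.0, 6.89 and 17.0 CPM in control. Its libraries were scattered in both genotypes, and its log2 fold change was -0.87 (SE 0.59, adjusted p = 0.445 by edgeR). Mx1 and Mx2 belong to a family of dynamin-like antiviral GTPases, but the annotation of the counts labels both as polymorphic pseudogenes. Mx1 and Mx2 had at most 6.12 CPM in any library and log2 fold changes of -0.33 and -0.52, neither called.

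Parp14, Parp9 and Dtx3l act in ADP-ribosylation, the attachment of ADP-ribose to proteins. Parp14 had 43.9, 29.1 and 30.5 CPM in Arid1a cKO, against 49.8, 39.5 and 37.6 CPM in control (log2 fold change -0.29, SE 0.18, adjusted p = 0.400 by edgeR). Dtx3l, a ubiquitin ligase that works with Parp9, had 39.5, 33.8 and 32.0 CPM in Arid1a cKO, against 44.0, 36.2 and 36.2 CPM in control. The groups of both overlapped through Arid1a cKO replicate 1. Dtx3l and Parp9 overlap on opposite strands, and since no source used here gives the strand setting of the counting, reads in the shared stretch cannot be told apart. The members Irf7, Irf9, Rtp4 and Cxcl10 also overlap another coding gene. Ifi27 had 38.6, 29.3 and 26.3 CPM in Arid1a cKO, against 43.4, 35.2 and 35.8 CPM in control (log2 fold change -0.28, SE 0.15, adjusted p = 0.342 by edgeR). Of the others, Ifit2, Rtp4 and Trim30a overlapped between genotypes, with log2 fold changes of -0.16, -0.20 and -0.10.

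Cxcl10, a chemokine that draws T cells and NK cells, was the member left out by the count filter. It had 0.484, 0.271 and 0.264 CPM in Arid1a cKO, against 0.191, 0.145 and 0.110 CPM in control, which is 8 to 19 counts per library in Arid1a cKO and 3 to 6 in control. Its Arid1a cKO libraries all lay above its control libraries, a separation found in 13.8% of the genes tested, and the gene was not tested in the main fit. In the edgeR fit with no filter, all 35 members were tested. There Cxcl10 was the 1 member higher in Arid1a cKO at an unadjusted p under 0.05, and 0 members were called.

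Per kilobase of exon, which allows genes to be compared, the highest mean levels over all 6 libraries were those of Ifi27 (23.7 CPM per kilobase), Bst2 (14.6), Isg15 (8.55), Irf9 (7.38) and Dtx3l (6.45). The 5 GTPases lay close together, from 3.90 CPM per kilobase for Irgm1 to 5.79 for Igtp. The lowest members were Oas3, at 0.169 CPM per kilobase, and Cxcl10, at 0.108.

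The members varied together between libraries of the same genotype. Control replicate 1 was the highest of the 6 libraries in 28 of 30 type I response genes, against 19.8% of all genes tested, and Arid1a cKO replicate 1 was the highest in the other two, Cxcl10 and Cmpk2. Within its genotype, control replicate 1 was the highest in 29 of 30 type I response genes and 5 of 5 GTPases, against 36.3% of all genes tested. Arid1a cKO replicate 1 was the highest of its genotype in 26 of 30 type I response genes and 5 of 5 GTPases, against 37.7% of all genes tested, and both held in 25 of 30 and 5 of 5, against 15.6%. The median ratio of control replicate 1 to the mean of the other two control libraries was 1.97 for type I response genes, 1.32 for GTPases and 1.00 for all genes tested. The median ratio of Arid1a cKO replicate 1 to the mean of the other two Arid1a cKO libraries was 1.54 for type I response genes, 1.61 for GTPases and 0.996 for all genes tested. The control ratio exceeded 1.5 in 72.4% of type I response genes tested and in 3.67% of all genes tested. The median SD of log2 CPM within a genotype was 0.50 for type I response genes and 0.32 for GTPases, against 0.15 for all genes tested.

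**Figure D3:**
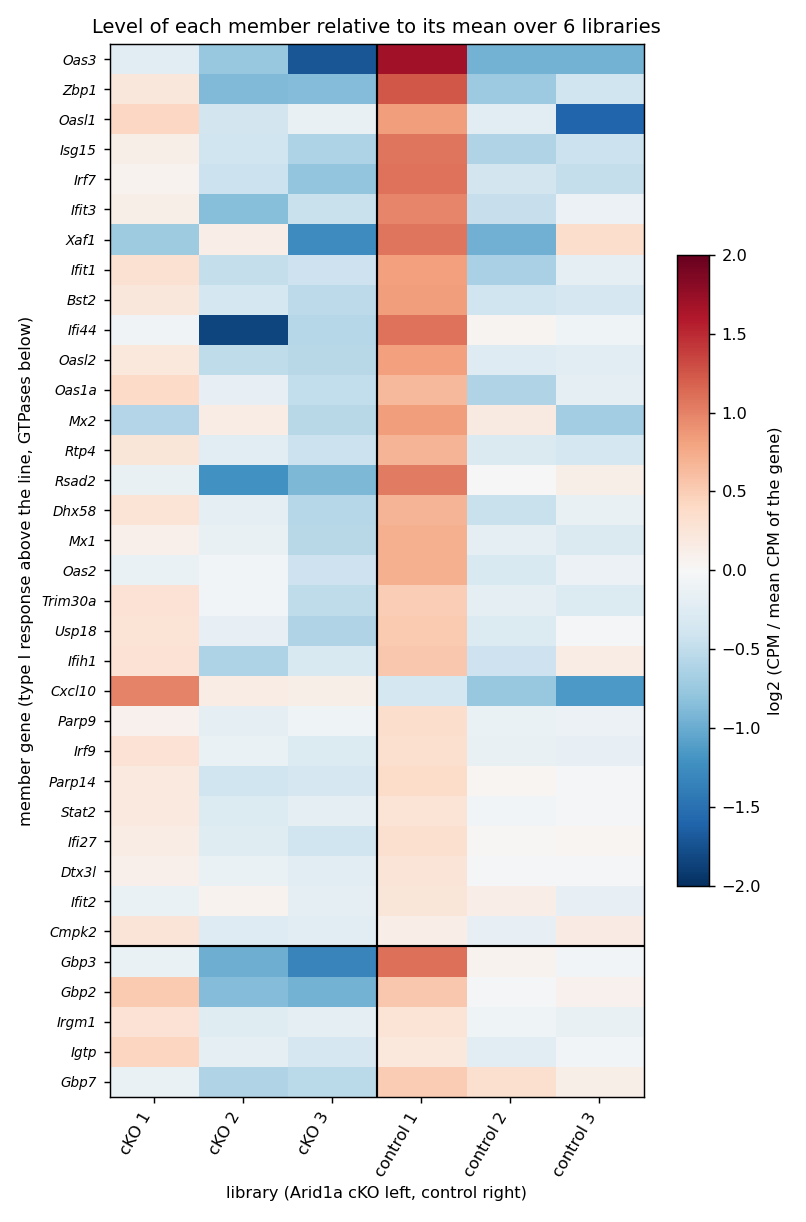
Log2 of the CPM of each member over its mean across 6 libraries, Arid1a cKO columns left and control columns right, type I response genes above the horizontal line and GTPases below it. The control 1 column is the highest in 28 of 30 type I response genes, and the cKO 1 column is the highest Arid1a cKO library in 26 of them.

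Leaving out control replicate 1 changed the balance of the type I response genes. Without it, 17 had a positive and 12 a negative log2 fold change, with a median of 0.02, against -0.29 with all libraries. Leaving out any other single library kept 25 to 29 of the 29 negative, with medians of -0.48 to -0.17. The GTPases were less dependent on that library, with a median of -0.29 without it and medians of -0.89 to -0.24 without any other. The median of the type I response genes lay 0.19 above that of the GTPases with all libraries, and 0.02 to 0.40 above it when 1 library was left out. Normalization by RLE, upper quartile or library size alone left the number of negative genes at 28 of 29 and 4 of 5.

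Upstream of these genes, 2 of the 21 interferon genes looked for were in the table, Ifnk and Ifnz, both under 0.4 CPM in every library and not tested. The receptor chains and their kinases varied little, with a median SD of log2 CPM within a genotype of 0.08. Ifnar1 had 118, 103 and 109 CPM in Arid1a cKO, against 99.8, 104 and 111 CPM in control (log2 fold change 0.07, adjusted p = 0.603 by edgeR). Ifngr1, a chain of the gamma-interferon receptor, had 115, 114 and 120 CPM in Arid1a cKO, against 128, 138 and 126 CPM in control, and the log2 fold change of -0.17 had an adjusted p of 0.154 by edgeR. Ifngr1 did not overlap between genotypes, but the difference was small. Of the 9 receptor and kinase genes, 3 were separated with Arid1a cKO above control and 2, Ifngr1 included, with it below. Over all genes tested these shares were 13.8% and 15.3%. Ifnar2, Ifngr2 and Ifnlr1 had log2 fold changes of 0.12, 0.02 and 0.48 (adjusted p = 0.396, 0.925 and 0.127 by edgeR). Of the 9 receptor and kinase genes 0 were called by edgeR or DESeq2 and 3 higher and 1 lower had an unadjusted p under 0.05. Of the same genes 6 had a positive and 3 a negative log2 fold change, and their median was 0.07.

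Of the 7 transcription factors outside the members 0 were called by edgeR or DESeq2 and 1 had an unadjusted p under 0.05 by edgeR, and their median log2 fold change was -0.01. Of the 8 negative regulators 0 were called by edgeR and 3 had an unadjusted p under 0.05, with a list median of 0.18 by edgeR. DESeq2 called Socs3 higher, among the 1935 of all 19613 genes that it called.

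Of the 14 nucleic acid sensing genes tested, 1 was called, Tlr3, an endosomal receptor of double-stranded RNA whose signal leads to interferon production. Tlr3 had 16.5, 21.5 and 17.5 CPM in Arid1a cKO, against 41.2, 31.3 and 32.6 CPM in control. The groups did not overlap, and Tlr3 fell by 0.92 on the log2 scale (SE 0.14, adjusted p = 0.0186 by edgeR's quasi-likelihood test with Benjamini-Hochberg adjustment). Control replicate 1 was the highest library here too, while Arid1a cKO replicate 1 was the lowest. Leaving out control replicate 3 (adjusted p = 0.0540) or Arid1a cKO replicate 3 (adjusted p = 0.0725) ended the call by edgeR. The other 13 genes of the list were not called, and the median of all 14 was -0.04.

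Further interferon-stimulated genes that are no members gave 18 positive and 30 negative log2 fold changes among 48 tested, with a median of -0.07 and 0 called by edgeR. At an unadjusted p under 0.05 there were 3 higher and 4 lower, and DESeq2 called Plac8, Slfn9 and Trim30d higher and Herc6 lower. DESeq2 called 1935 of all 19613 genes tested. The rest of this paragraph refers to edgeR unless DESeq2 is named. Without control replicate 1 these 48 genes gave 32 positive and 16 negative log2 fold changes with a median of 0.10. At an adjusted p of 0.0590 by edgeR, Herc6, which in the mouse joins Isg15 to its targets, came closest to the threshold, with 9.23, 9.53 and 8.54 CPM in Arid1a cKO, against 14.2, 11.2 and 12.8 CPM in control. Of 13 other GBP and IRG genes tested, 11 had a negative log2 fold change, with a median of -0.44. By edgeR 0 were called and 1 higher and 4 lower had an unadjusted p under 0.05, and DESeq2 called Gbp8 higher and Gbp5 lower. Without Arid1a cKO replicate 1 the median of the 13 was -0.69 and 3 were called lower, Gbp2b, Gbp5 and Gbp10. In that setting 335 of all 19613 genes tested were called lower. With any other single library left out 0 of the 13 were called, and the medians were -0.52 to -0.28.

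Targets of gamma-interferon outside the GBP and IRG families, among them genes of antigen presentation, gave another pattern. Of 18 tested, 15 had a positive log2 fold change, with a median of 0.13, and 0 were called by edgeR or DESeq2 or had an unadjusted p under 0.05. Arid1a cKO replicate 1 was the highest of the 6 libraries in 18 of the 19 in the table, and without it 3 had a positive and 15 a negative log2 fold change, with a median of -0.17. Ciita, the master regulator of MHC class II genes, had 15.0, 4.20 and 3.59 CPM in Arid1a cKO, against 3.12, 2.75 and 3.47 CPM in control. H2-K1, a class I heavy chain, had 159, 55.6 and 51.4 CPM in Arid1a cKO, against 95.8, 61.2 and 84.7 CPM in control. Summed over the list, these targets reached 1082, 637 and 603 CPM in Arid1a cKO and 850, 649 and 710 CPM in control, so the highest library was Arid1a cKO replicate 1. The type I response genes summed to 449, 338 and 314 CPM in Arid1a cKO and 596, 364 and 379 CPM in control, and the 5 GTPases to 100.2, 62.6 and 61.3 CPM in Arid1a cKO and 129.8, 94.6 and 89.6 CPM in control. For both of those lists the highest library was control replicate 1.

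**Figure D4:**
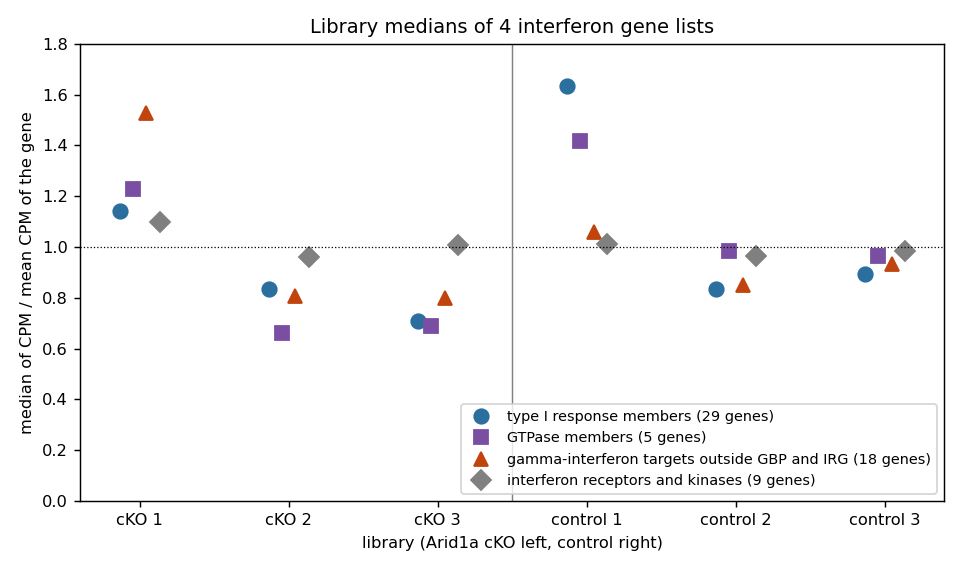
Median over each list of the CPM of a gene divided by its mean over 6 libraries, Arid1a cKO libraries left and control libraries right. Type I response genes peak in control replicate 1 (1.63), gamma-interferon targets outside GBP and IRG peak in Arid1a cKO replicate 1 (1.53), and receptors and kinases stay between 0.960 and 1.10.

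Markers of immune cells also differed between the libraries. The 10 T and NK cell markers, all in the table, summed to 26.1, 9.42 and 7.59 CPM in Arid1a cKO and 6.92, 5.65 and 7.19 CPM in control, and Arid1a cKO replicate 1 was the highest library in 10 of 10. Only 3 of these 10 passed the filter on low counts. By edgeR 0 of the 3 were called and 1 was higher at an unadjusted p under 0.05. DESeq2 called 1 higher, Cd4, among the 1935 of all 19613 genes that it called. The 12 macrophage markers, also all in the table, summed to 937, 655 and 591 CPM in Arid1a cKO and 682, 479 and 603 CPM in control, with positive log2 fold changes in 12 of 12. Arid1a cKO replicate 1 was the highest library in 10 of 12. Their median log2 fold change was 0.40, and without that library it was 0.17, with 10 positive and 2 negative. With all libraries, edgeR called 0 of the 12 and put 1 under an unadjusted p of 0.05, and DESeq2 called 0. The 6 markers of plasmacytoid dendritic cells, a main source of type I interferon, summed to 4.17 to 5.57 CPM in Arid1a cKO and 4.82 to 7.23 CPM in control, with the highest sum in control replicate 1. The 6 neutrophil markers in the table summed to 21.6, 3.00 and 2.34 CPM in Arid1a cKO and 1.85 to 2.52 CPM in control. None of these markers was at 0 in all libraries of a genotype. Markers of other cells differed between libraries too. Erythroid markers summed to 342, 69.2 and 56.4 CPM in Arid1a cKO and 111, 40.2 and 136 CPM in control. Dental epithelium markers summed to 2859, 1332 and 1955 CPM in Arid1a cKO and 1108, 1216 and 4458 CPM in control. The part of all these cells in the results for interferon response genes was not tested.

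The GBP genes that are no members were read beside the members on chromosome 3, a choice made after their values were seen. Gbp5, the neighbour before Gbp7, had 4.43, 2.71 and 2.44 CPM in Arid1a cKO, against 6.85, 4.93 and 5.66 CPM in control, without overlap (log2 fold change -0.86, SE 0.25, adjusted p = 0.100 by edgeR). Gbp2b, between Gbp3 and Gbp2, had 7.01, 0 and 0.0660 CPM in Arid1a cKO, against 9.50, 6.09 and 8.84 CPM in control. These were 275, 0 and 2 counts in Arid1a cKO and 298, 168 and 242 counts in control, so 2 of the 3 Arid1a cKO libraries were at or near 0 and replicate 1 was within the control range. Kyat3, the next coding gene past the cluster, had 8.46, 9.47 and 5.80 CPM in Arid1a cKO, against 10.7, 9.28 and 10.1 CPM in control (log2 fold change -0.34, adjusted p = 0.318 by edgeR). Gtf2b, the coding gene after Kyat3, had 27.4, 25.1 and 25.2 CPM in Arid1a cKO, against 28.5, 28.9 and 29.1 CPM in control (log2 fold change -0.15, adjusted p = 0.227 by edgeR). The strain background, labelled alike in all libraries, was not tested on the data. In all 5 GBP genes of the cluster, and in Gtf2b outside it, the 2 lowest libraries were Arid1a cKO replicates 2 and 3. Gtf2b, like Gbp5, did not overlap between genotypes, and 15.3% of all genes tested were separated in that direction. The share of all genes with these 2 libraries lowest was not counted.

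**Figure D5:**
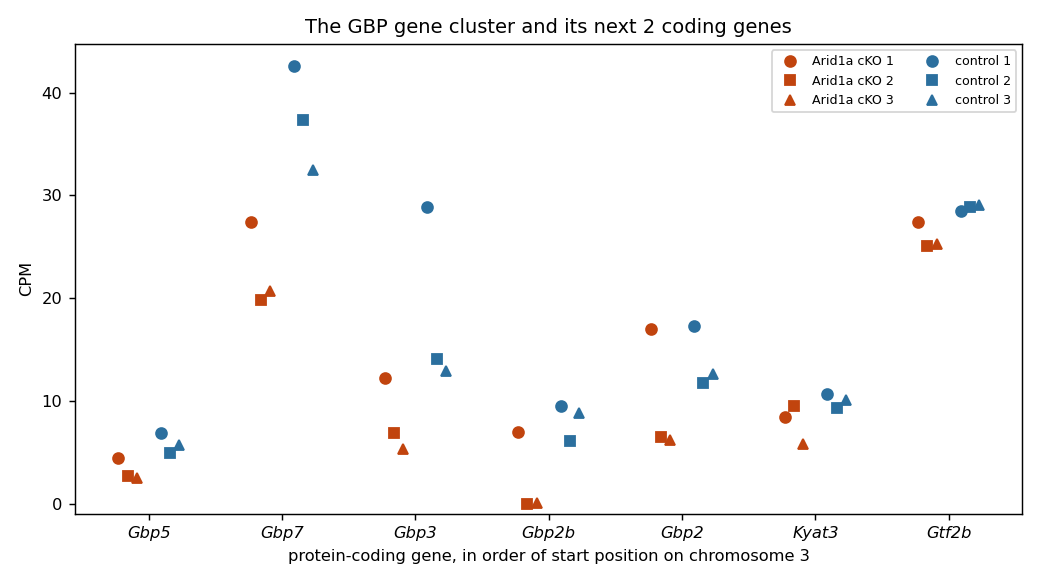
CPM in each library for the protein-coding genes of the GBP cluster on chromosome 3 and the 2 coding genes after it, in order of start position, Arid1a cKO libraries left of control libraries for each gene. Arid1a cKO replicates 2 and 3 are the 2 lowest libraries in all 5 GBP genes and in Gtf2b, and Gbp2b is at or near 0 in both.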

How the data were processed

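RNA of the proximal incisor was sequenced in 6 libraries, grouped by the genotype in the labels. The labels' protocols give RNA integrity numbers over 9.0 and 75 cycles of single-end sequencing. STAR 2.6.1d, Partek and the build mm10 are named, per the submitters' processing notes, while annotation release and strand setting are in no source used here. The authors deposited estimated counts of 25703 genes. A normalized signal table of 21456 genes, also deposited by the authors, was found to hold (count + 1) over 1 factor per library. Replicate numbers follow accession order and only name libraries.

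Estimated counts were rounded, filtered with filterByExpr (minimum count 10, which kept 19613 genes), normalized by TMM (factors 0.961 to 1.04) and compared with edgeR 4.0.16 (robust quasi-likelihood F test, two-sided, no covariates). Benjamini-Hochberg adjustment ran over every gene tested, with a threshold of 0.05. SE was computed as |log2 fold change| over the root of F. The common biological variation was 15.8%. With totals of 27300932 to 37908478 counts per library, spread between libraries rather than counting limits the precision of all but low genes. Exon lengths, overlaps and shared 75-base stretches come from GENCODE M21, and promoter sequences from RefSeq, for all members but Mx1, Mx2, Oas2, Usp18, Ifi27, Rtp4, Dhx58, Zbp1, Parp9 and Parp14.

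Alternatives were normalization by RLE, by upper quartile or by library size alone, DESeq2 1.42.0, limma-voom, limma 3.58.1 on log2 of the authors' deposited values with pseudocounts 1 and 5, no filter, at least 1 CPM in all libraries, and leaving out each library. R 4.3.3, Python 3.11.15, pandas 2.3.3 and matplotlib 3.10.9 were used, and the count test was tested on simulated data. The members and lists were chosen with earlier results of these data known. Values per library are given for members past the threshold, for those with the smallest p, the highest level per kilobase or the most extreme fold change, and, in other interferon lists, for called genes and receptors. A result for 1 gene that this rule names is left out. Other genes named were chosen after their values were seen.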

Additional observations from a re-analysis of the deposited data

How the results depend on the processing

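For the 34 members tested, Tlr3 and Arid1a, 536 values were computed under 15 other settings. Direction and side of the threshold held in 496, and 29 changed sign, each of them a member that was not called and each with 1 library left out. Without control replicate 1, 17 members turned from negative to positive. With each library left out in turn, the log2 fold change ranged over -0.76 to 0.26 for Isg15, -0.59 to 0.25 for Ifit1, -0.87 to 0.0866 for Irf7, -0.23 to 0.13 for Irf9, -0.74 to 0.00392 for Oasl2, -0.37 to 0.34 for Oas1a, -0.53 to 0.0227 for Oas2, -1.66 to 0.19 for Oas3, -0.48 to 0.0202 for Usp18 and -0.60 to 0.19 for Bst2. It ranged over -0.41 to 0.22 for Rtp4, -0.48 to 0.17 for Dhx58, -0.50 to 0.0669 for Mx1, -1.20 to 0.15 for Zbp1, -0.19 to 0.0699 for Parp9, -0.31 to 0.18 for Trim30a, -0.24 to 0.0979 for Irgm1, -0.40 to 0.76 for Oasl1 and -0.25 to 0.16 for Igtp. The cause was not tested.

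Genes past the threshold numbered 777, against 1935 with DESeq2 and 168 to 523 with 1 library left out. Members called lower numbered 0 with library size alone, 2 with DESeq2, 0 with no filter and 0 to 2 with 1 library left out. In the settings with 0, edgeR put 1 to 5 members under an unadjusted p of 0.05. All of these were lower in Arid1a cKO except 1 higher with no filter, Cxcl10. The adjusted p of Gbp7 by edgeR was 0.0568 with library size alone and 0.0532 with no filter. With 1 library left out, the median of the GTPases ranged from -0.89 to -0.24 and the difference of the medians from 0.0209 to 0.40.

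No paired analysis was possible because the labels give no replicate numbers that tie a library of Arid1a cKO to a library of control. At a median SD of 0.50 on the log2 scale among type I response genes, with 3 libraries per genotype, small differences were not detectable.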

Other observations

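Some genes near the members were low or nearly silent in some libraries and not in others, and they are given as values. Ifi44l, next to Ifi44 on chromosome 3, had 8.56, 0.0812 and 8.81 CPM in Arid1a cKO replicates 1 to 3, against 9.24 to 13.2 CPM in control. Trim12a, of the TRIM cluster on chromosome 7 that holds Trim30a, had 0.0765, 10.5 and 9.76 CPM in Arid1a cKO, against 0.0319, 0.181 and 0.146 CPM in control. Trim30d, in the same cluster, had 0.714, 1.89 and 2.18 CPM in Arid1a cKO, against 0.510, 0.0362 and 0.292 CPM in control, and Trim5 had 0.612, 2.41 and 2.54 CPM in Arid1a cKO, against 0.414, 0.326 and 0.584 CPM in control. In Trim12a, Trim30d and Trim5 the 2 highest libraries were Arid1a cKO replicates 2 and 3, the same libraries in which Gbp2b was at or near 0. The member Trim30a did not follow them, with 13.8, 10.9 and 7.92 CPM in Arid1a cKO, against 15.8, 9.90 and 9.39 CPM in control. None of these neighbours was called by edgeR, and Trim12a was under the count filter. These genes were picked after their values were seen, and what sets the libraries apart, their strain background included, was not tested.

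Single genes of Arid1a cKO replicate 1 stood far above the other 5 libraries. Serpina3g, a protease inhibitor induced by gamma-interferon, had 11.1, 0.920 and 1.15 CPM in Arid1a cKO, against 0.797, 1.78 and 1.10 CPM in control. Ccl5, a chemokine of activated T cells, had 4.03, 0.731 and 0.429 CPM in Arid1a cKO, against 0.510, 0.507 and 0.548 CPM in control. The T cell marker Cd3e had 2.55, 0.217 and 0.0989 CPM in Arid1a cKO, against 0.0637, 0.109 and 0.292 CPM in control.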
